A study of Mus musculus with 5 samples.

Results

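Cdc14a, Lrmda, Plxdc1, Ccbe1 and Trpm3 are 5 of the 22532 genes counted in nuclei of the mouse central amygdala (CeA), and they were chosen by their measured values: each had shown a lower level in fasted than in fed libraries in a neuron type of the lateral CeA (CeL). Their fall in the CeL is therefore given as a description with no test. Their level per neuron type was also part of the choice and is described in the same way. Tests were kept for nuclei placed by marker genes in types outside the CeL. Single-nucleus RNA-seq was done on 3 fed and 2 fasted libraries labelled C57BL6, each made from the CeAs of 1 male together with 1 female. Fed replicates 1 and 2 and both fasted replicates came from wild-type mice (C57BL/6NRj) of 8 weeks, with food withheld for 20 h in fasted replicate 1 and for 21 h in fasted replicate 2. Fed replicate 3 came from 12-week-old mice that carry a Cre recombinase transgene driven by Htr2a regulatory sequence on a bacterial artificial chromosome, in a line backcrossed to C57BL/6N, and that had received a Cre-dependent mCherry virus in the CeA, so age, genotype and virus cannot be told apart from the library there.

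The CeA is a largely GABAergic nucleus that links taste, visceral and threat signals to feeding and defensive behaviour. Its neuron types are told apart by neuropeptides and signalling genes, and protein kinase C delta (Prkcd) and somatostatin (Sst) neurons of the CeL are known for opposing effects on feeding and fear. The 5 genes share no pathway. Cdc14a encodes a phosphatase that removes phosphates placed by cyclin-dependent kinases and is needed for hearing. Trpm3 encodes a calcium-permeable cation channel opened by heat and by pregnenolone sulfate. Plxdc1 encodes a transmembrane protein first found in tumour endothelium and a receptor of the secreted factor encoded by Serpinf1. Ccbe1 encodes a secreted protein that helps the protease Adamts3 to activate the lymphatic growth factor Vegfc. Lrmda encodes a leucine-rich protein needed for melanocyte differentiation.

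Nuclei with 500 to 8000 genes and under 0.8% mitochondrial UMIs (unique molecular identifiers, each standing for 1 captured RNA molecule) were placed in 9 gates by the raw UMIs of a marker gene. The Dnah5, Prkcd and Sst gates stand for CeL types, the Calcrl, Tac1 and Vdr gates for other CeA types, and the Foxp2, Rarb and Pde1c gates for intercalated cells, the amygdalostriatal area and the interstitial nucleus next to the CeA. The fed libraries kept 1151, 1130 and 1438 nuclei and the fasted libraries 1708 and 1734, with library medians of 6608 to 16367 UMIs per nucleus. The unit of level is CPM, which counts UMIs of a gene for every 1000000 UMIs in the same gate and library. Any pair of libraries had at most 1 barcode in common. The median mitochondrial share was 0.317% and 0.237% in the fasted libraries against 0.0529% to 0.136% in the fed ones. The Dnah5 gate had the highest fed means of Vipr2 (193 CPM) and Tac2 (67.3 CPM) among the gates, and also held Prkcd (260 CPM). Vipr2 and Tac2 are markers of the Nts and Tac2 type of the CeL, and the level of Nts itself is not given here. The name of the Dnah5 gate thus rests on part of the marker list. Of the nuclei in the Dnah5 gate, 28 of 77, 20 of 64 and 46 of 99 in the fed libraries met the minimum of no other gate. In the fasted libraries 53 of 88 and 34 of 130 did so, and the gate is not plainly 1 type. In the Pde1c gate 22 of 50, 24 of 91 and 27 of 162 fed nuclei met the minimum of no other gate. Of its fasted nuclei, 45 of 78 and 49 of 156 did so. In the Foxp2 gate 44 of 73, 48 of 110 and 58 of 138 fed nuclei and 37 of 58 and 90 of 182 fasted nuclei did so. Nuclei that met several minimums went to the Pde1c, Foxp2 or Rarb gate before any CeL gate. Those gates can thus hold nuclei that also met a CeL minimum. The Sst gate had the highest mean of Ebf1, at 1100.1 CPM. The study also found Sst cells in the medial CeA and lists Ebf1 among markers of a medial cluster that were expressed elsewhere too. The Sst gate is therefore not plainly limited to the CeL type. The Tac1 and Vdr gates fell to 7 and 5 nuclei in their smallest library, under the minimum of 10, and were not fitted.

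The files give each gene as 1 count that includes introns, so the extent of the gene matters for what was counted. On GRCm39, Cdc14a (ENSMUSG00000033502) lies on chromosome 3 at 116066201 to 116222394 on the minus strand, and exons cover 8.77% of it. Plxdc1 (ENSMUSG00000017417) lies on chromosome 11 at 97809383 to 97877633 on the minus strand, with 13.7% exonic. Lrmda (ENSMUSG00000063458) lies on chromosome 14 at 22069710 to 23106153 on the plus strand, spans 1036 kb and is 0.269% exonic. Trpm3 (ENSMUSG00000052387) lies on chromosome 19 at 22116410 to 22972774 on the plus strand, spans 856 kb, is 2.88% exonic and holds the microRNA gene Mir204 on its own strand. Annotated genes on the same strand overlap Trpm3 (5 genes), Lrmda (3), Plxdc1 (2) and Ccbe1 (2), and none of these was counted on its own here.

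RefSeq windows around a start site are shown for Cdc14a, Lrmda and Trpm3, 1 each, so that their letters can be set side by side. The fitted differences of all 3 genes were negative in the Dnah5 and Sst gates, but the CeL gate of the most negative value was not the same for all. Among the CeL gates, the most negative difference, fasted minus fed, lay in the Dnah5 gate for Cdc14a and Lrmda and in the Prkcd gate for Trpm3. Each window runs from 250 bases before to 50 bases after a start site, is the member's window with the most CpG dinucleotides, is written in the gene's direction, and has its CpG in capitals.
Cdc14a, chr3:116424023-116424322, minus strand, GRCm38.p6: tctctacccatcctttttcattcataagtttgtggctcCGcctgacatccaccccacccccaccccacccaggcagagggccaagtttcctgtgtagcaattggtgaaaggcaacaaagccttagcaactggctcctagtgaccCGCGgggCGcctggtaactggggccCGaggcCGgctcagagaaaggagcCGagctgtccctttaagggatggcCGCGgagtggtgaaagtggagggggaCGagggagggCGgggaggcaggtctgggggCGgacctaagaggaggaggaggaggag
Lrmda, chr14:22019462-22019761, plus strand, GRCm38.p6: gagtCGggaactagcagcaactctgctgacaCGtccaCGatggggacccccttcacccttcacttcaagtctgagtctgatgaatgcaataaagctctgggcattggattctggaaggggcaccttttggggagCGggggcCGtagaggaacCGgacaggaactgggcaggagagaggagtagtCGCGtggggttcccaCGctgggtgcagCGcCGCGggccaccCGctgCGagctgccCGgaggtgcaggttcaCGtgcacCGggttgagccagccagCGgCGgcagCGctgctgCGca
Trpm3, chr19:22138796-22139095, plus strand, GRCm38.p6: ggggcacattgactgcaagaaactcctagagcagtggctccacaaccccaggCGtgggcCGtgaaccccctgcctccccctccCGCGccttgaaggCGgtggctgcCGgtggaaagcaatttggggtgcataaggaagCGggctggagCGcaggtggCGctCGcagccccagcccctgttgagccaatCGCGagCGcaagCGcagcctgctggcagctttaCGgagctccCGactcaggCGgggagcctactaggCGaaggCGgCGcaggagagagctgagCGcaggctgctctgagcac
The Lrmda and Trpm3 windows held 21 CpG each and the Cdc14a window 12, where the median of all 32851 windows was 7. The other windows of Cdc14a held 7 and 3 CpG and that of Trpm3 10. The windows shown for Cdc14a and Trpm3 were picked for their CpG, so the median over all windows is not a like comparison for them. The cyclic AMP response element TGACGTCA, the FoxO motif TGTTTAC and the E-box CACGTG were searched on both strands, and the first and the last of these have the letters ACGT in common. Over the 6 windows of the 3 genes, the only match was an E-box starting at base 254 of the Lrmda window. The E-box was in 7.15%, the FoxO motif in 3.65% and the cyclic AMP response element in 1.79% of all windows.

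In the fed state the 5 genes differed in where they were expressed. Levels per gate were part of how the members were chosen, so the orders below are descriptions. Cdc14a was highest in the Prkcd gate, at 179 ± 76.3 CPM (SD, n = 3), and in the Dnah5 gate, at 168 ± 50.0 CPM, and these overlapped between libraries. Every fed library of the Pde1c gate, at 60.7 ± 7.84 CPM, lay below every fed library of the Dnah5 gate. In the fasted libraries these gates overlapped, at 45.2 to 71.1 CPM in the Dnah5 gate and 31.0 to 54.0 CPM in the Pde1c gate. Cdc14a then stood at 41.4 ± 31.9 CPM in the Sst gate and 36.4 ± 14.7 CPM in the Calcrl gate, which overlapped, and at 16.5 ± 5.00 CPM in the Rarb and 9.53 ± 1.38 CPM in the Foxp2 gate. In the small Vdr gate it was at 5.40 ± 5.99 CPM, and no Cdc14a UMI was found in the 3 fed libraries of the Tac1 gate, which allows up to 5.29 CPM (3 counts over the 3 libraries).

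In the fed libraries Ccbe1 was highest in the Prkcd gate. They held 36.5, 53.4 and 33.5 CPM there, above every fed library of every other gate. The next gate was Foxp2 at 10.5 ± 4.92 CPM, and from there down to the Vdr gate at 1.45 ± 2.52 CPM neighbours in the order overlapped. This order did not hold in the fasted libraries. There the Ccbe1 mean was 11.3 CPM in the Prkcd gate, 13.1 CPM in the Foxp2 gate and 12.9 CPM in the Pde1c gate. Lrmda had the opposite low point, with 1.82, 2.67 and 10.6 CPM in the fed libraries of the Prkcd gate. Its other gates ran from 28.2 ± 34.7 CPM in the Tac1 gate to 70.2 ± 69.0 CPM in the Vdr gate, both small, and no neighbouring pair in the order was separate. Nuclei with a Gad1 or Gad2 UMI that met no gate are not part of this order. They held Lrmda at 69.4 ± 4.86 CPM in the fed libraries. Plxdc1 was highest in the Foxp2 gate at 47.0 ± 8.20 CPM, above every fed library of the Prkcd gate at 24.3 ± 6.90 CPM, and its remaining gates overlapped in order from 23.5 ± 10.6 CPM in the Dnah5 gate downwards.

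Trpm3 had its fed level in the order Sst (2485 ± 574 CPM), Foxp2 (1925 ± 231 CPM) and Rarb (1607 ± 240 CPM), each overlapping the next. The Pde1c gate at 1005 ± 70.0 CPM lay below every fed Rarb library. The Dnah5, Prkcd and Calcrl gates followed at 952 ± 372, 884 ± 113 and 759 ± 12.9 CPM and overlapped in that order, as did the small Tac1 gate at 623 ± 193 CPM.

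**Figure D1:**
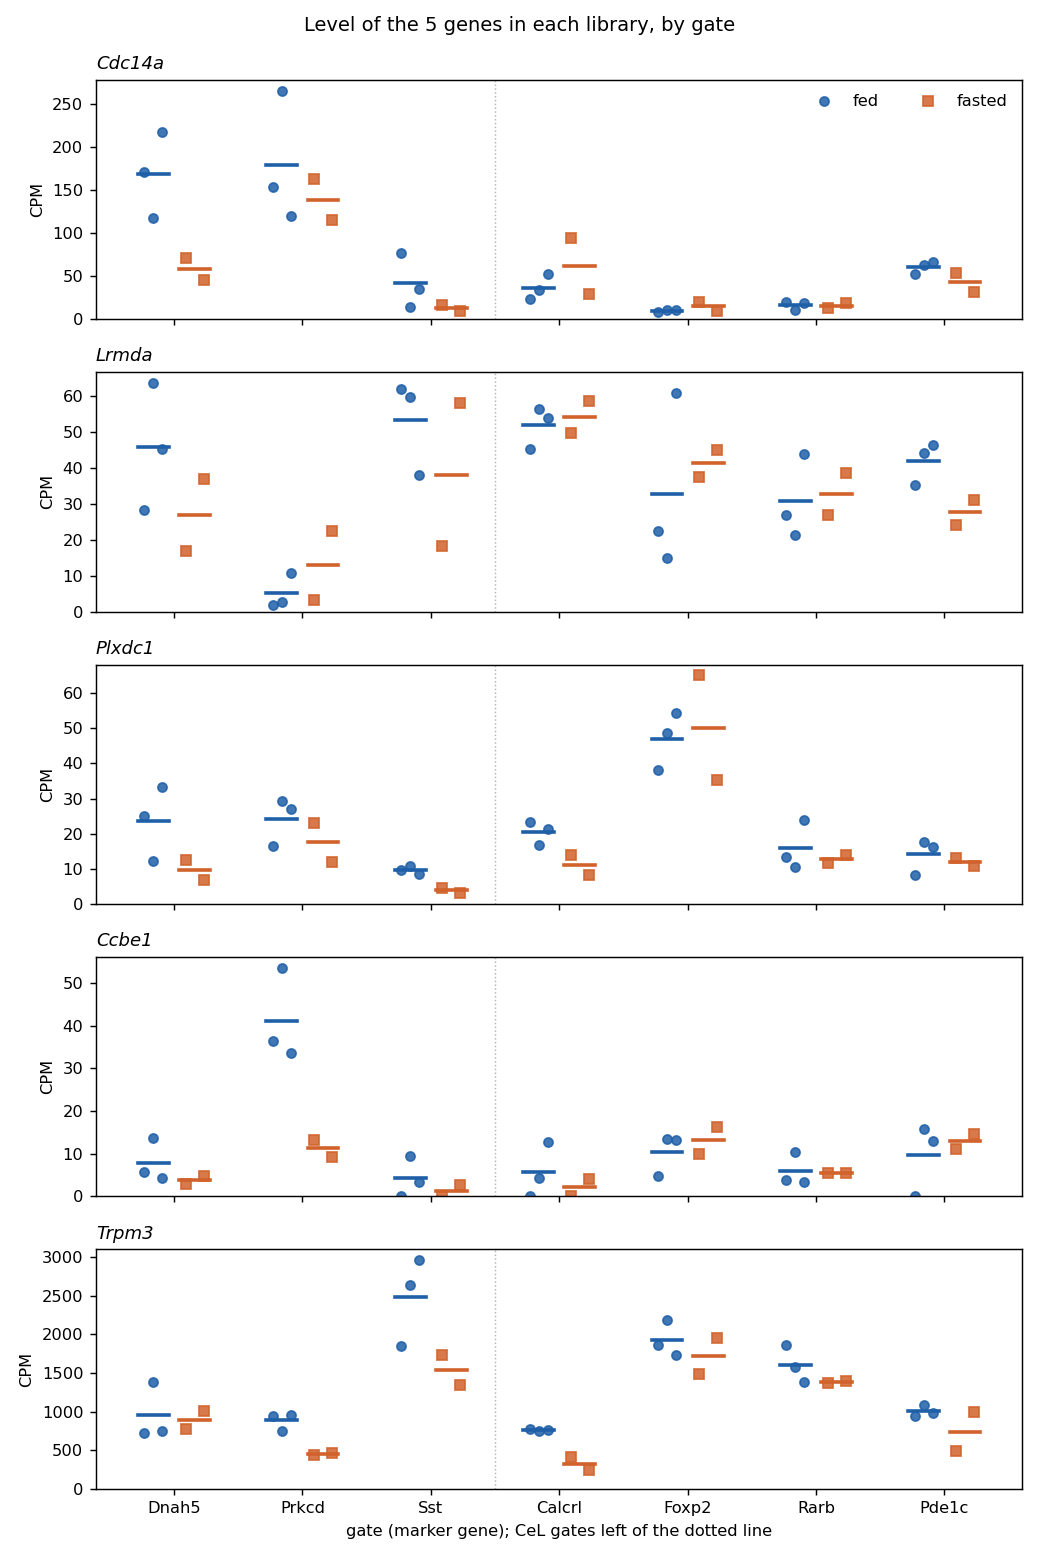
CPM of each gene (vertical axis, linear, from 0) in 7 gates (horizontal axis), with a circle for each of the 3 fed and a square for each of the 2 fasted libraries and a short line at the group mean. Both fasted libraries lie below every fed library for Cdc14a in the Dnah5 gate, for Ccbe1 in the Prkcd gate, for Trpm3 in the Prkcd, Sst and Calcrl gates, for Plxdc1 in the Sst and Calcrl gates and for Lrmda in the Pde1c gate.

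The genes whose fed profile over the 9 gates was most like that of a member were sought among 4720 genes with at least 50 CPM in a gate, by Pearson's r of the mean log2(CPM + 1), given as a description over gates that share libraries. Cdc14a was most like Pdlim5 (r = 0.980), Etv5 (0.977) and Styx (0.977). Ccbe1 was most like Mideas (0.938), Csnk1a1 (0.934) and Txndc16 (0.933). Plxdc1 was most like Arhgef12 (0.960), Hacd2 (0.936) and Ola1 (0.925). Lrmda was most like Zfp827 (0.925), Nipsnap2 (0.895) and Tnik (0.888). Trpm3 was most like Slc2a3 (0.913), Carf (0.897) and Pogz (0.881).

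Cdc14a was lower after fasting in the Dnah5 gate. Its level there was 170, 117 and 217 CPM in fed replicates 1, 2 and 3 and 71.1 and 45.2 CPM in fasted replicates 1 and 2, from 671 fed and 181 fasted UMIs. Both fasted libraries were below every fed library, and the fitted log2 difference, fasted minus fed, was -1.61 ± 0.29 (SE). With the nuclei that met no other gate it was -2.16. Replicates of the same number were assumed to share a preparation batch. Within the batches that hold the replicates numbered 1 and 2, the log2 ratio of fasted to fed CPM was -1.26 and -1.37. In the Prkcd gate, where its fed mean was 179 CPM, Cdc14a had 153, 265 and 119 CPM fed and 162 and 115 CPM fasted. These overlapped, the log2 difference was -0.43 ± 0.30, and the batches went apart at 0.08 and -1.20. Without fed replicate 2 the difference in the Prkcd gate was 0.017. In the Sst gate it had 76.2, 13.6 and 34.4 CPM fed against 16.0 and 9.54 CPM fasted, on 46 fed and 22 fasted UMIs. The log2 difference of -1.58 ± 0.58 there came with overlapping libraries.

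Plxdc1 and Lrmda were also lower in the Dnah5 gate on average, but with overlap. Plxdc1 had 25.0, 12.3 and 33.2 CPM fed and 12.6 and 6.95 CPM fasted, so fed replicate 2 lay just under fasted replicate 1. The log2 difference was -1.48 ± 0.46, and within the batches it was -0.99 and -0.82. Lrmda had 28.4, 63.5 and 45.3 CPM fed and 16.7 and 36.8 CPM fasted, with fed replicate 1 below fasted replicate 2. Its log2 difference was -0.66 ± 0.34, and within the batches -0.76 and -0.79. Without fasted replicate 2 the Lrmda difference became -1.48, without fasted replicate 1 -0.38 and without fed replicate 2 -0.34. With nuclei that met 1 gate only, it was -1.75. Without fasted replicate 2 the Plxdc1 difference became -0.90.

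In the other CeL gates the groups overlapped for Plxdc1 and Lrmda, except for Plxdc1 in the Sst gate. Plxdc1 had 16.4, 29.4 and 27.0 CPM fed and 23.2 and 11.9 CPM fasted in the Prkcd gate, on 88 and 32 UMIs, a log2 difference of -0.70 ± 0.38 that became -0.14 without fasted replicate 2. In the Sst gate, where Plxdc1 did not pass the filter on low counts, 9.53, 10.8 and 8.60 CPM fed stood against 4.58 and 3.18 CPM fasted, on 15 and 7 UMIs. Lrmda had 61.9, 59.7 and 37.9 CPM fed against 18.3 and 57.9 CPM fasted in the Sst gate, on 79 and 99 UMIs, with a log2 difference of -0.29 ± 0.37 that became -1.54 without fasted replicate 2 and 0.10 without fasted replicate 1. In the Prkcd gate 1 fasted library, at 3.31 CPM, lay among the fed ones and the other, at 22.5 CPM, above them, and the difference was 1.28 ± 0.65 on 22 fed and 36 fasted UMIs.

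Ccbe1 (ENSMUSG00000046318) lies on GRCm39 chromosome 18 at 66178373 to 66435812 on the minus strand, with 4.21% exonic. It was lower after fasting in the Prkcd gate, where its fed level was highest among the gates. Among Prkcd nuclei it went from 36.5, 53.4 and 33.5 CPM in the fed to 13.3 and 9.27 CPM in the fasted libraries, on 137 and 22 UMIs. The groups did not overlap, the fed mean was 3.65 times the fasted mean, and the log2 difference was -1.98 ± 0.37. Within the batches the log2 ratio was -1.46 and -2.53. Ccbe1 did not pass the filter on low counts in the Dnah5 and Sst gates, where no library exceeded 13.7 CPM and 9.49 CPM. Its mean was lower after fasting there as well, with overlap between libraries. It was 7.87 CPM fed and 3.83 CPM fasted in the Dnah5 gate, on 31 and 16 UMIs. In the Sst gate it was 4.31 CPM fed and 1.27 CPM fasted, on 9 and 4 UMIs.

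Trpm3 was lower after fasting in the Prkcd gate, with 947, 754 and 952 CPM in the fed and 444 and 463 CPM in the fasted libraries. The groups did not overlap, with a log2 difference of -0.99 ± 0.16 and within-batch values of -1.09 and -0.71. In the Sst gate, where its fed level was highest, Trpm3 had 1848, 2642 and 2963 CPM fed and 1728 and 1340 CPM fasted, which did not overlap either, and the difference was -0.74 ± 0.20. Within the batches it was -0.10 and -0.98 there. In the Dnah5 gate Trpm3 had 726, 1381 and 749 CPM fed and 780 and 1003 CPM fasted, which overlapped, with a difference of -0.11 ± 0.26.

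Trpm3 had its most negative value in the Calcrl gate, a CeA type outside the CeL, and is therefore described there without a test. Its fed libraries held 772, 747 and 760 CPM and its fasted libraries 409 and 243 CPM. The log2 difference was -1.25 ± 0.24, and within the batches it was -0.92 and -1.62. With the marker minimum doubled the difference was -0.59, with marker UMIs counted per 10000 UMIs -0.82, without fasted replicate 2 -0.88 and without fasted replicate 1 -1.66. Whether the difference of any of the 5 genes differed between gates was not tested.

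Read against all genes of a gate, the count of members with both fasted libraries below every fed library was 1 of the 4 that passed the filter in the Dnah5 gate (9.36% of all genes tested there), 2 of 5 in the Prkcd gate (9.48%) and 1 of 3 in the Sst gate (7.63%). These counts and the medians that follow come from the contrast that chose the members, and nothing is read from them. The median log2 difference of the members that passed was -1.07, -0.70 and -0.74 in the Dnah5, Prkcd and Sst gates, where that of all genes was -0.0035, -0.015 and -0.00045.

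**Figure D2:**
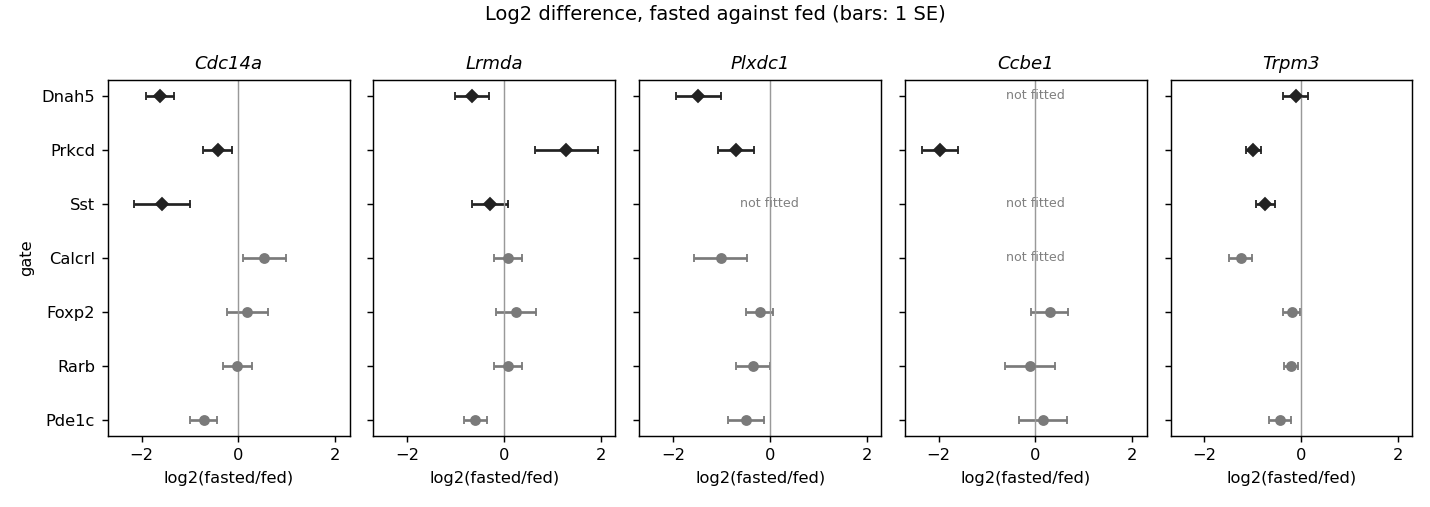
Fitted log2 difference, fasted against fed (horizontal axis), in 7 gates (vertical axis) for each gene, with bars of 1 SE, diamonds for CeL gates and circles for gates outside the CeL. Cdc14a and Plxdc1 have their most negative values in the Dnah5 gate, Ccbe1 in the Prkcd gate and Trpm3 in the Calcrl gate, and gene and gate pairs that did not pass the filter are marked as not fitted.

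The nuclei of the CeL gates were next thinned to 4000 UMIs each. The share of nuclei with at least 1 UMI could then be set side by side between libraries of different depth. These shares come from the contrast and gates that chose the members, and such shares were not computed for other genes. Nothing is therefore read from their overlap or its absence. In the Dnah5 gate 38.2%, 18.8% and 44.4% of fed nuclei and 16.7% and 14.0% of fasted nuclei had a Cdc14a UMI, and 1 fed and 5 fasted nuclei were too shallow to enter. The exact 95% interval of fed replicate 2, at 18.8%, overlapped those of both fasted libraries. Fasted nuclei with Cdc14a carried 1.43 and 1.50 UMIs each against 1.86 to 2.42 in the fed libraries. Thinned to 2000 UMIs instead, 22.1%, 10.9% and 31.3% of fed and 15.9% and 6.92% of fasted nuclei had Cdc14a, which overlapped. Without thinning the mean share was 58.7% fed and 29.6% fasted. Of the Prkcd nuclei, 10.9%, 11.5% and 6.60% in the fed and 4.00% and 4.88% in the fasted libraries had a Ccbe1 UMI, and the exact 95% intervals of all 5 libraries overlapped, since 3 to 7 nuclei stand behind each share. Without thinning these shares averaged 20.0% fed and 7.50% fasted. Plxdc1 was found in 9.21%, 1.56% and 12.1% of fed and 2.38% and 2.33% of fasted Dnah5 nuclei, and Lrmda in 9.21%, 10.9% and 10.1% of fed and 2.38% and 11.6% of fasted ones. Unthinned, Plxdc1 averaged 21.0% fed and 9.95% fasted and Lrmda 24.8% and 16.9%.

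For Trpm3 in the Prkcd gate, the separation of the shares depended on the depth. These values too come from the contrast that chose the gene and are given as a description. After thinning to 4000 UMIs, 65.5%, 63.5% and 75.5% of fed nuclei and 65.3% and 63.4% of fasted nuclei had a Trpm3 UMI, and these overlapped. Thinned to 2000 UMIs, the shares were 54.5%, 63.5% and 55.7% fed and 45.3% and 48.2% fasted, which did not overlap. At 4000 UMIs nuclei with Trpm3 carried 5.36, 4.55 and 4.51 UMIs each in the fed and 2.69 and 2.98 in the fasted libraries, which did not overlap. Unthinned shares were 89.1%, 96.2% and 91.5% fed and 80.0% and 85.7% fasted, again without overlap, from all 213 fed and 159 fasted nuclei, of which 2 fasted nuclei were under 4000 UMIs. As a measure of background from free RNA, the 117 of 315 astrocyte nuclei that had at least 4000 UMIs were thinned alike (library medians of 2329 to 4405 UMIs over all 315), and 0 of 117 had a Ccbe1 UMI, which allows a share of up to 2.56%. No cell class here lacked Trpm3, so no such background share could be given for it. Intervals cover counting error only.

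**Figure D3:**
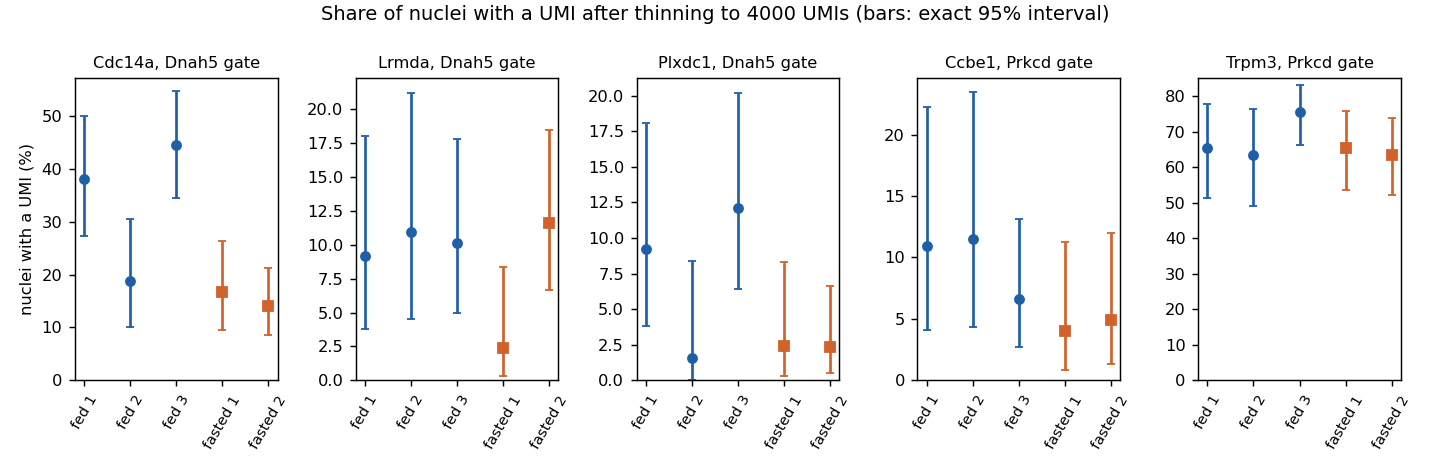
Percent of nuclei with at least 1 UMI of each gene after thinning every nucleus to 4000 UMIs (vertical axis, from 0), in each library of the gate named above the panel, with exact 95% binomial intervals. The shares of Cdc14a in the 2 fasted libraries, 16.7% and 14.0%, are below the 3 fed shares. The interval of fed replicate 2 overlaps those of both fasted libraries. Shares of Trpm3 overlap between the groups. Thinned to 2000 UMIs, the shares of Cdc14a overlapped and those of Trpm3 did not. The members were chosen by lower levels in fasted libraries, so nothing is read from these separations.

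In the gates that stand for types outside the CeL, the fasted libraries were tested against the fed ones with edgeR's quasi-likelihood test. The members were picked as lower in single CeL types, with results of these data known, so a low count of calls elsewhere may be set in part by that choice. The 5 genes gave 18 tests in the Calcrl, Foxp2, Rarb and Pde1c gates, with Trpm3 in the Calcrl gate left out, and 0 passed an adjusted p of 0.05. Among these gates only the Calcrl gate stands for a CeA type, and no type of the medial CeA was tested. An unadjusted p under 0.05 was found in 2 of the 18, both in the Pde1c gate, where 3.68% of all genes had one. DESeq2 and edgeR's likelihood ratio test also called 0. Among all genes tested the same test called 0% in the Calcrl gate, 0.232% in the Foxp2 gate, 0.0092% in the Rarb gate and 0% in the Pde1c gate, so a count of 0 lies where the background lies. In the Calcrl gate 431 of 7374 genes had an unadjusted p under 0.05, with 1 call by DESeq2 and 24 by the likelihood ratio test, and in the Pde1c gate 384 of 10447 genes did, with 3 and 24 calls.

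Fitted with the assumed preparation batch as a replicate block, which leaves 1 residual degree of freedom, 2 of the 18 tests passed. The same fit called more of all genes as well, 1.26% in the Foxp2, 1.29% in the Rarb, 0.996% in the Pde1c and 0% in the Calcrl gate. Lrmda in the Foxp2 gate was then higher after fasting, with a log2 difference of 1.27 ± 0.30 and an adjusted p of 0.0032 by edgeR, against 0.25 ± 0.41 without the block. Its levels were 22.3, 15.0 and 60.7 CPM fed and 37.5 and 44.9 CPM fasted, so fed replicate 3, assumed to have its own batch, lay above both fasted libraries. Trpm3 in the Pde1c gate was then lower, at -0.51 ± 0.14 with an adjusted p of 0.041 by edgeR, against -0.44 ± 0.23 without the block. Trpm3 had 948, 1083 and 983 CPM fed and 484 and 995 CPM fasted there, so the difference lay in fasted replicate 1. Without fasted replicate 2, Trpm3 in the Pde1c gate was at -1.01 with an adjusted p of 0.045 by edgeR, in a fit that called 0.323% of all genes there. With the marker minimum doubled it was at 0.083 and with nuclei of 1 gate only at 0.17.

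Cdc14a had 23.5, 33.5 and 52.3 CPM fed and 94.1 and 29.3 CPM fasted in the Calcrl gate, a difference of 0.54 ± 0.45 with an adjusted p of 0.99 by edgeR, which was -0.71 with the marker minimum doubled. In the Pde1c gate it had 51.9, 63.4 and 66.8 CPM fed and 54.0 and 31.0 CPM fasted, which overlapped, at -0.72 ± 0.27 with an unadjusted p of 0.021 and an adjusted p of 1.00 by edgeR, and with nuclei of 1 gate only the value was 0.59. Lrmda in the Pde1c gate had 35.3, 44.2 and 46.2 CPM fed and 24.2 and 31.0 CPM fasted, which did not overlap, at -0.59 ± 0.24 with an unadjusted p of 0.028 and an adjusted p of 1.00 by edgeR. Lrmda differed by 0.08 ± 0.28 in the Calcrl gate and by 0.08 ± 0.29 in the Rarb gate. Plxdc1 had 23.5, 16.7 and 21.2 CPM fed and 13.8 and 8.36 CPM fasted in the Calcrl gate, which did not overlap, at -1.02 ± 0.54 with an adjusted p of 0.92 by edgeR.

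In the Foxp2 gate, where Plxdc1 was highest, it had 38.2, 48.6 and 54.3 CPM fed and 65.1 and 35.3 CPM fasted, which enclosed the fed values, at -0.21 ± 0.27. Ccbe1 in the Foxp2, Rarb and Pde1c gates gave 0.29 ± 0.38, -0.11 ± 0.51 and 0.15 ± 0.50, and it did not pass the filter in the Calcrl gate. Its Calcrl means were 5.64 CPM fed and 2.09 CPM fasted, on 11 and 4 UMIs, with overlap between libraries. Trpm3, at its high levels in the Foxp2 and Rarb gates, gave -0.20 ± 0.17 and -0.21 ± 0.15. Cdc14a gave 0.19 ± 0.42 and -0.02 ± 0.30 in these 2 gates, and Plxdc1 gave -0.35 ± 0.35 in the Rarb and -0.49 ± 0.37 in the Pde1c gate. Both fasted libraries were below every fed library for 2 of the 4 members that passed in the Calcrl gate, Plxdc1 and Trpm3 (9.67% of all genes), for 1 of 5 in the Pde1c gate, Lrmda (7.98%), and for 0 of 5 in the Foxp2 (6.4%) and Rarb (7.5%) gates. In the Tac1 and Vdr gates, which hold 5 to 15 nuclei a library, no member had non-overlapping groups. Nuclei with a Gad UMI that met no gate, 330 to 697 a library, were not fitted. Trpm3 had 936 to 1086 CPM fed and 877 and 926 CPM fasted in them. Cdc14a had 10.38 to 25.4 CPM fed and 10.1 and 10.35 CPM fasted, so both genes were lower without overlap, Cdc14a only by a narrow margin. Ccbe1 had 10.0 to 11.9 CPM fed and 12.6 and 13.7 CPM fasted, higher without overlap. Lrmda and Plxdc1 overlapped there. The share of all genes with non-overlapping groups was not computed for these nuclei or for the Tac1 and Vdr gates. Nothing is therefore read from the overlap or its absence in them.

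Partners and relatives of the 5 genes were read from a list of 18: Cdc14b, the Rab proteins Rab32 and Rab38, Plxdc2 and Serpinf1, the Vegfc pathway with Adamts3 and the receptors Flt4 and Kdr, and the other Trpm channels. Between 5 and 6 of the 18 passed the filter in each of the 7 gates, and 0 were called lower and 0 higher in any gate by edgeR's quasi-likelihood test, by DESeq2 or by the likelihood ratio test. All genes were called at 0.0208% in the Dnah5 gate, 0.0662% in the Prkcd gate and 0.468% in the Sst gate. An unadjusted p under 0.05 was found for 1 of them each in the Prkcd (6.92% of all genes), Sst (6.83%) and Calcrl (5.84%) gates, for 2 in the Foxp2 gate (4.32%) and for 0 in the Dnah5 (6.53%), Rarb (3.74%) and Pde1c (3.68%) gates. Adamts3, the protease that acts with Ccbe1, was present in the Prkcd gate at 191 CPM in the fed mean and differed by 0.33 ± 0.18 there, on the opposite side of 0 from Ccbe1. Its substrate Vegfc was at 0.79 CPM. Plxdc2, the closest relative of Plxdc1, differed by -0.63 ± 0.23 in the Prkcd gate, with an adjusted p of 0.52 by edgeR, and by -0.55 ± 0.20 in the Sst gate, with an adjusted p of 0.41. Cdc14b differed by -0.0024 ± 0.22 in the Dnah5 gate, where Cdc14a was lower. Trpm7, a channel kinase, gave 0.058 ± 0.19 in the Prkcd gate. Serpinf1 was at 0 CPM in the fed mean of the Dnah5 gate.

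Glial nuclei, taken as nuclei with no Gad1 or Gad2 UMI and with UMIs of glial markers, showed that none of the 5 genes was limited to neurons. Trpm3 was at 5201, 5221 and 3609 CPM fed and 6152 and 5817 CPM fasted in astrocytes. Lrmda was at 1305, 935 and 1839 CPM fed and 391 and 885 CPM fasted in microglia, from 4 to 16 nuclei a library. Ccbe1 was at 117, 57.6 and 135 CPM fed and 79.6 and 97.2 CPM fasted in oligodendrocyte precursors, from 9 to 17 nuclei a library, and had no UMI in astrocytes or microglia, which allows up to 2.61 and 12.2 CPM (3 counts over the 5 libraries). Cdc14a was at 77.7, 109 and 126 CPM fed and 140 and 86.0 CPM fasted in astrocytes. Plxdc1 was at 186, 48.3 and 147 CPM fed and 83.8 and 151 CPM fasted in microglia. In oligodendrocytes, with 10 to 41 nuclei a library, Trpm3 was at 631, 335 and 532 CPM fed and 86.4 and 218 CPM fasted. Both fasted libraries were thus above every fed one for Trpm3 in astrocytes and below every fed one for Trpm3 in oligodendrocytes and for Lrmda in microglia. Cdc14a in microglia was also below, on 10 fed and 3 fasted UMIs, and Plxdc1 in astrocytes above, on 2 and 4 UMIs. The share of all genes with non-overlapping groups was not computed for glial nuclei. Whether the members stand apart from other genes there was not tested.

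**Figure D4:**
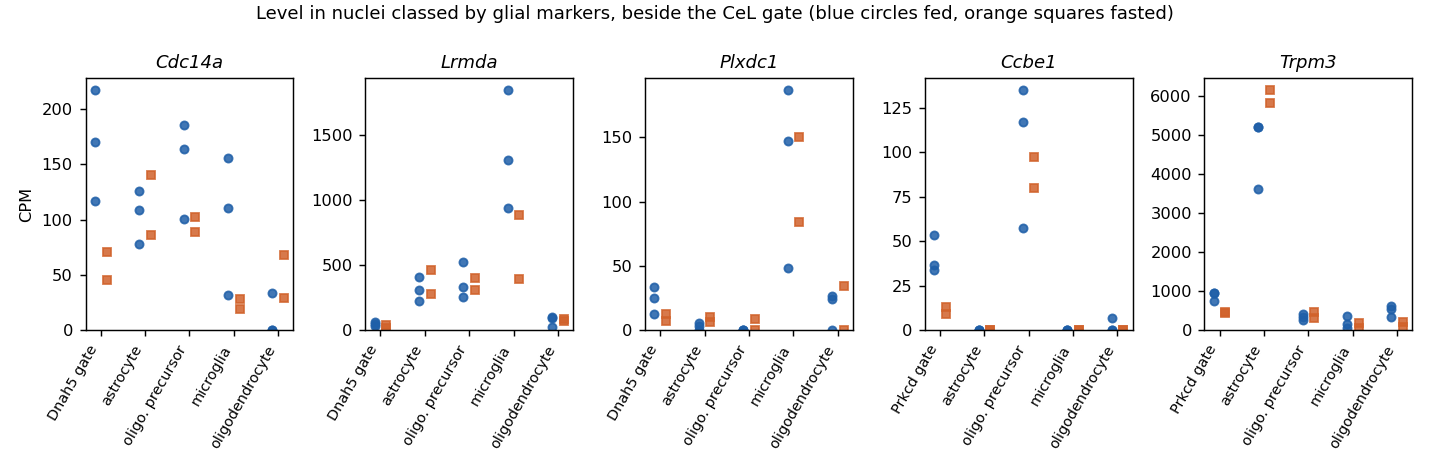
CPM of each gene (vertical axis, linear, from 0, its own scale in each panel) in the CeL gate of its fall and in 4 classes of glial nuclei (horizontal axis), with circles for fed and squares for fasted libraries. Trpm3 lies between 3609 and 6152 CPM in astrocytes, above its 444 to 952 CPM in the Prkcd gate.

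Glial marker lists were summed in the gates beside these results, since glial RNA carries some of the 5 genes. The 4 astrocyte markers summed to 54.7, 87.2 and 99.4 CPM fed and 152 and 128 CPM fasted in the Prkcd gate, with 0 to 2 of the 4 at 0. Both fasted sums were thus above every fed sum. The 4 oligodendrocyte markers summed to 213, 176 and 200 CPM fed and 257 and 295 CPM fasted in that gate and were also above the fed libraries in the Dnah5 gate (222 and 237 against 142 to 197 CPM) and in the Sst gate (188 and 247 against at most 122 CPM), with 0 to 2 of the 4 at 0. The 3 oligodendrocyte precursor markers, the class where Ccbe1 was high, summed to 5.47, 10.7 and 18.2 CPM fed and 8.28 and 13.2 CPM fasted in the Prkcd gate, which overlapped. In the Calcrl gate these precursor markers were at 155, 52.3 and 175 CPM fed and 260 and 261 CPM fasted, and the microglial markers at 155, 199 and 7.07 CPM fed and 180 and 110 CPM fasted, with 0 of either list at 0. The part of these marker levels, of the mitochondrial share and of depth in the differences was not tested.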

How the data were processed

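Per the file headers, the deposited values are raw UMI counts per gene and nucleus from Cell Ranger 5.0.0; the authors' methods name GRCm39 with Cre and mCherry sequences and introns included, while the submitters' processing notes name Cell Ranger 2.1.1 and mm10. The members and lists were chosen with earlier results of these data known. Nuclei needed 1 UMI of Gad1 or Gad2 and then marker UMIs of at least 5 (Pde1c), 4 (Foxp2, Rarb), 3 (Dnah5, Prkcd) or 2 (Vdr, Calcrl, Tac1, Sst), taken in the order Pde1c, Foxp2, Rarb, Dnah5, Vdr, Calcrl, Prkcd, Tac1, Sst; Calcrl nuclei also needed 2 times their Calcrl UMIs to reach their Prkcd UMIs. No doublet caller was run. Counts were summed per gate and library and fitted across all genes with edgeR 4.0.16 (R 4.3.3; TMM, filterByExpr, quasi-likelihood test, Benjamini-Hochberg adjustment), after a test on simulated data. SE is the log2 difference over the square root of F. The p-values measure the spread between libraries. The study describes a preparation batch shared by its fed and fasted datasets numbered 1, and another shared by those numbered 2. A further fed dataset had its own batch. That these numbers match the replicate numbers used here, with fed replicate 3 as the further dataset, was assumed. Deviations from the group means correlated at 0.038 to 0.428 between same-numbered libraries over the gates. Whether this reflects a shared batch was not tested, and libraries of unlike number were not compared. Same-numbered libraries were also alike in depth. The median UMIs per nucleus, fed and fasted, were 8326 and 6608 for those numbered 1 and 14886 and 16367 for those numbered 2. Named genes were the members, their listed relatives and the 3 genes of most similar fed profile. Alternatives were other gate minimums, thinning, scaling, filters, DESeq2 1.42.0, the replicate block and leaving out each library. Loci came from GENCODE, promoters from RefSeq.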

Additional observations from a re-analysis of the deposited data

How the results depend on the processing

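The difference of each member in the CeL gate of its fall stayed negative under every alternative in which it was fitted. That gate is the CeL gate with the most negative fitted value, and the members were chosen as lower in CeL types of these libraries. The kept sign is therefore largely set by the choice and is given as a description. Leaving out 1 library at a time gave -1.92 to -1.23 for Cdc14a, -1.48 to -0.34 for Lrmda and -1.80 to -0.90 for Plxdc1 in the Dnah5 gate, and -2.18 to -1.64 for Ccbe1 and -1.07 to -0.93 for Trpm3 in the Prkcd gate. With nuclei that met 1 gate only, Cdc14a was at -2.16 and Lrmda at -1.75 in the Dnah5 gate. With the marker minimum doubled, Ccbe1 was at -2.48 and Trpm3 at -0.79 in the Prkcd gate, and the Sst gate had too few nuclei to fit. With marker UMIs per 10000 UMIs, Trpm3 was at -0.81. After thinning to 4000 UMIs, Plxdc1 and Ccbe1 no longer passed the filter in those gates. Under the replicate block they stood at -1.34 (Cdc14a), -0.81 (Lrmda), -0.91 (Plxdc1), -2.20 (Ccbe1) and -0.93 (Trpm3), and the paired fit called 2 members outside the CeL in place of 0, and 1.26% of all genes in the Foxp2 and 0.996% in the Pde1c gate in place of 0.232% and 0%. Over the fits without 1 library the members called were 0 to 1, the 1 in the Pde1c gate without fasted replicate 2, where 0.323% of all genes were called.

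Of 31 fitted gene and gate pairs, 18 changed sign under at least 1 alternative. In the Prkcd gate Cdc14a was at 0.12 after thinning to 4000 UMIs and ran from -0.69 to 0.017 without 1 library, and Lrmda went from 1.28 to -0.057 with no Gad UMI required, an alternative added after seeing the data. In the Dnah5 gate Trpm3 was at 0.11 with nuclei of 1 gate and ran from -0.29 to 0.29 without 1 library. Lrmda in the Sst gate ran from -1.54 to 0.10. Outside the CeL, Cdc14a went from 0.54 to -0.71 in the Calcrl gate with the marker minimum doubled and from -0.72 to 0.59 in the Pde1c gate with nuclei of 1 gate. The cause was not tested.

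The fed level in the Dnah5 gate was 219 CPM for Cdc14a with marker UMIs per 10000 UMIs and 80.2 CPM for Lrmda with nuclei of 1 gate. Thinned to 2000 UMIs, the share of nuclei with a UMI was 21.4% fed and 11.4% fasted for Cdc14a, 5.76% and 2.47% for Plxdc1 and 8.50% and 4.21% for Lrmda in the Dnah5 gate, 6.56% fed and 1.27% fasted for Ccbe1, and 57.9% fed and 46.8% fasted for Trpm3 in the Prkcd gate. Shares of Ccbe1 and Plxdc1 rest on few nuclei, and the size of change that could be detected at this depth was not tested.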

Other observations

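In fed replicate 3, nuclei with and without an mCherry UMI, the reporter of Htr2a-Cre cells, could be set side by side; this is 1 library with no replicate, and the exact 95% Poisson intervals cover counting error only. In the Prkcd gate Trpm3 was at 483 CPM (422 to 551) in 29 nuclei with mCherry and at 1129 CPM (1071 to 1190) in 77 nuclei without it. In the Sst gate Trpm3 was at 3305 CPM (3108 to 3511) in 22 nuclei with and 2548 CPM (2359 to 2749) in 18 nuclei without mCherry. In the Dnah5 gate it was at 752 CPM (683 to 827) with and 747 CPM (697 to 801) without. Cdc14a in the Dnah5 gate was at 270 CPM in 31 nuclei with and 188 CPM in 68 nuclei without mCherry. Virus reach and the share of Htr2a-Cre cells in each gate were not tested.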
